A study of Mus with 9 samples.

Results

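Kidney RNA-seq data were examined for 40 genes of amino acid and ketone body catabolism, chosen by gene symbol from a list of the enzymes of these pathways. All 40 were found among the 54532 genes of the count table, and all 40 were among the 15902 genes that passed the filter on low counts. The kidneys came from male C57BL/6 mice in 3 groups of 3 libraries, named 18 mo, 21 mo and 21 mo/O304. All mice had 1 kidney removed at 18 months of age. The 18 mo mice were killed 1 week after surgery, whereas the others were from then on injected intraperitoneally every day until about 21 months of age, the 21 mo mice with saline and the 21 mo/O304 mice with O304 at 10 mg/kg/day. AMPK, the kinase that senses low cellular energy, is activated by O304, a small molecule. The later groups differ from 18 mo in age, in time after surgery and in being injected, which cannot be told apart, while O304 was compared with saline at the same age. The labels number the libraries within a group and do not say that they are separate mice, so the p-values measure the spread between these libraries only.

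Amino acid catabolism in the kidney takes place largely in the mitochondria of proximal tubule cells, which are also the site of renal arginine and creatine precursor synthesis. The branched-chain amino acids leucine, isoleucine and valine first lose their amino group, and a shared dehydrogenase complex then commits their ketoacids to oxidation. Leucine ends in acetyl-CoA and acetoacetate, valine in propionyl-CoA, and isoleucine in both acetyl-CoA and propionyl-CoA, so the branched-chain steps run into those of propionyl-CoA and of the ketone bodies. In bulk kidney RNA, fewer cells of a type and less RNA per cell cannot be told apart.

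Total counts on genes ranged from 15636378 to 18396725 per library. One count was worth 0.0458 to 0.0669 CPM (counts scaled to a common library size by the trimmed mean of M-values), so the 3 counts taken as a floor came to 0.137 to 0.201 CPM, and the lowest value of any member, 0.764 CPM of Arg2 in O304 replicate 3, was above it. Of all counts, the members took 1.17%, 1.24% and 1.24% in the 18 mo libraries (replicates 1, 2 and 3 in this order throughout), 1.15%, 0.654% and 0.371% in the saline libraries of 21 mo and 1.21%, 1.11% and 1.17% in the O304 libraries. Replicates 2 and 3 of the 21 mo group were thus the low libraries, while replicate 1 was close to the 18 mo level. Counts on mitochondrial genes made up 11.6%, 9.66% and 6.59% in the 21 mo replicates, beside 8.95% to 10.8% in the other libraries. The scaling factors were 0.939, 1.13 and 1.20 in the 21 mo replicates, beside 0.928 to 1.00 in the others, and the part of these library differences in the members' values was not tested. The biological coefficient of variation was 18.0% within 18 mo, 44.0% within 21 mo and 20.6% within 21 mo/O304 over all genes tested. Every comparison with the 21 mo group therefore rests on libraries that differ strongly from one another, and results are given without replicate 1 and without replicate 3 of that group, the libraries nearest to and farthest from the 18 mo level. These were singled out after the values were seen.

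The members covered a wide range of levels in the 18 mo group, compared between genes as FPKM (fragments per kilobase of gene and library size, as deposited). Ass1, the argininosuccinate synthase of arginine synthesis, was the most abundant at 1192 ± 193 FPKM (SD, n = 3). It was followed by the ketone body transferase gene Oxct1 at 348 ± 19.9 FPKM (SD, n = 3) and the thiolase gene Acat1 at 222 ± 21.6 FPKM (SD, n = 3), and the ranges of these 3 genes did not overlap. In all, 9 members had a mean of at least 100 FPKM and 4 had a mean under 10 FPKM, namely Hibch, Bcat1, Ppm1k and Arg2. Arg2, the mitochondrial arginase, was the lowest at 1.90 ± 1.08 FPKM (SD, n = 3). Ass1 and Asl, which act in series to make arginine, were thus far above this arginase. Gatm, which also uses arginine, had a mean of 155 FPKM, compared with 51.0 FPKM for Asl.

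**Figure D1:**
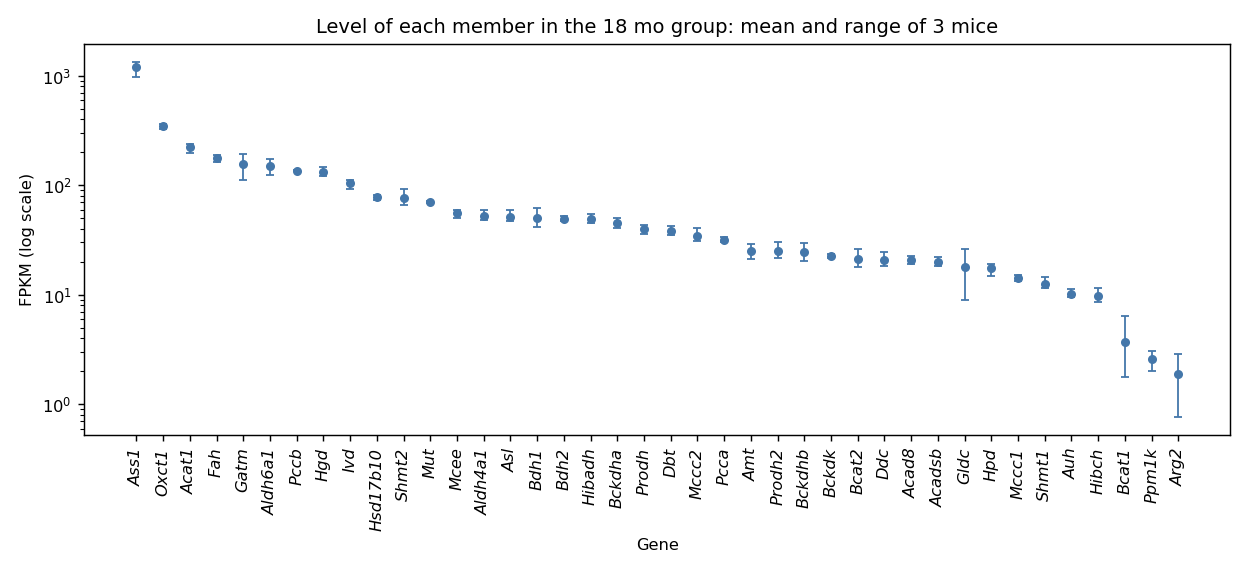
Level of each of the 40 members in the 18 mo group, with genes on the x axis in order of level and FPKM on a log y axis. Points are the means of 3 libraries and bars their range. Ass1 stands highest at 1192 FPKM and Arg2 lowest at 1.90 FPKM.

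Against the 18 mo libraries, the member genes were low in 2 of the 3 saline libraries and near the 18 mo level in the third. The median member stood at 107%, 55.9% and 33.5% of its 18 mo mean in replicates 1, 2 and 3 of the 21 mo group. The O304 libraries stood at 108%, 92.4% and 100.2%. In 21 mo replicate 3, 31 of the 40 members were under 50% of their 18 mo mean, compared with 11 in replicate 2 and 0 in replicate 1. Of the O304 libraries, replicate 1 had 0 such members, replicate 2 had 1 and replicate 3 had 2. The 18 mo libraries themselves had 0, 2 and 0. In the 21 mo group, 34 members were ordered with replicate 3 below replicate 2 and replicate 2 below replicate 1. For 33 members both replicates 2 and 3 were below all 7 other libraries. This order and this split were picked after the values were seen. The shares of all genes were not computed for them or for the 50% threshold, so how unusual these counts are was not tested. Summed over the members, CPM was 11737, 13003 and 12477 at 18 mo, 12303, 5810 and 3098 with saline, and 12944, 11627 and 12618 with O304.

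The low libraries left the 18 mo range more often downwards for the members than for the genes as a whole. In 21 mo replicate 2, 35 members lay below all 18 mo libraries and 2 above, where 36.1% of all genes tested lay below and 37.3% above. In replicate 3, 37 members lay below and 2 above, where 40.5% of all genes lay below and 41.3% above. Replicate 1 had 12 members below and 19 above, where 33.4% of all genes lay below and 31.1% above. The O304 libraries had 8, 15 and 12 members below, in replicates 1 to 3, where 30.4%, 32.5% and 31.3% of all genes lay below. They had 16, 6 and 11 members above, where this held for 4771, 5130 and 5043 of all 15902 genes tested. These counts describe single libraries and were not tested.

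**Figure D2:**
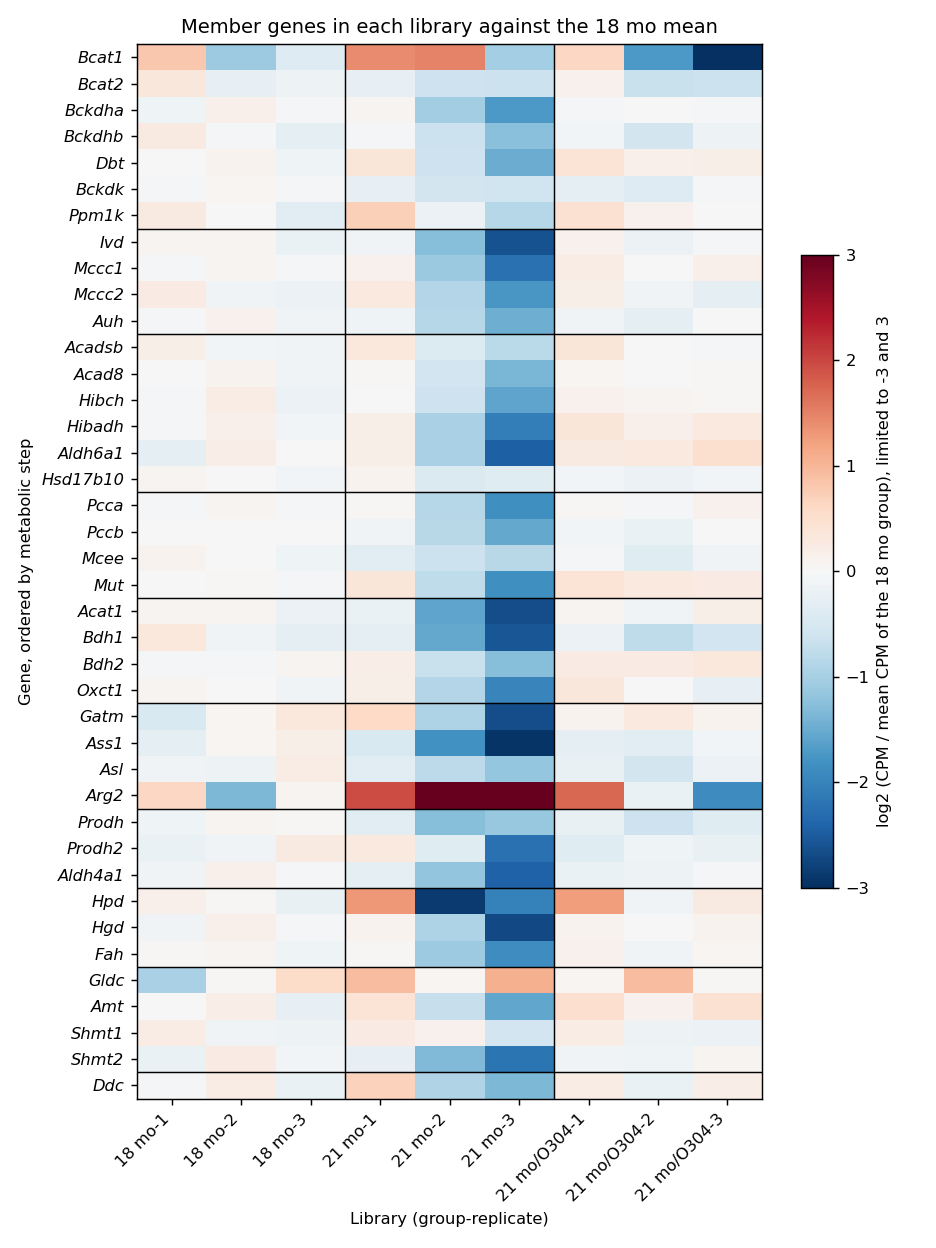
Heat map of the 40 members (rows, grouped by metabolic step) in the 9 libraries (columns), coloured by the log2 ratio of CPM to the 18 mo mean and limited to -3 and 3. The columns 21 mo-2 and 21 mo-3 are blue for most rows, whereas 21 mo-1 and the 3 O304 columns are pale. Arg2, Bcat1 and Gldc differ from the other rows.

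The first comparison asked how the kidneys of the 21 mo group differed from those of the 18 mo group. The fitted log2 fold change was below 0 for 36 members and above 0 for 4 (Bcat1, Ppm1k, Arg2 and Gldc), where 47.3% of all genes tested were below 0. The median of the members was -0.57, compared with 0.03 over all genes. No member reached an adjusted p under 0.05 in the edgeR quasi-likelihood test, where 0.0189% of all genes were called higher and 0% lower. At an unadjusted p under 0.05, 10 members were lower, where 12.0% of all genes were, and 1 member was higher, where 14.0% of all genes were. The 10 were Mcee, Bckdk, Prodh, Asl, Ass1, Shmt2, Auh, Aldh4a1, Bdh1 and Pccb, and the 1 was Arg2. Groups did not overlap for 12 lower members, where this held for 15.3% of all genes, and for 1 higher member, where it held for 13.5%. The 12 were the same 10 genes and Bcat2 and Acat1.

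The calls in this comparison changed with the 21 mo library left out. Without replicate 1, 32 members were called lower by edgeR, where 11.9% of all genes were, and the median of the members was -1.12. Without 21 mo replicate 3, no member was called lower by edgeR, where 0.428% of all genes were, and the median of the members was -0.30. In that fit 8 members were lower at an unadjusted p under 0.05, a threshold at which the share of all genes was not taken. Limma voom with a quality weight for each library called 35 members lower, where 26.6% of all genes were. The weights were 0.223, 9.11 and 0.132 in 21 mo replicates 1, 2 and 3, so that the 21 mo side of the voom fit is almost entirely replicate 2. DESeq2 on all 9 libraries called 5 members lower (Asl, Ass1, Bckdk, Mcee and Prodh), where 5.41% of all genes were, and Arg2 higher, where 6.90% were.

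The second comparison asked how O304 changed the kidneys relative to saline at 21 months. It uses the same 21 mo libraries as the first, so its values are set beside the first ones and do not form separate evidence. The fitted log2 fold change was above 0 for 36 members, where 48.2% of all genes were above 0, and below 0 for Bcat1, Arg2, Gldc and Shmt1. The median of the members was 0.63, compared with -0.02 over all genes. No member or other gene reached an adjusted p under 0.05 in edgeR, so that 0% of all genes were called higher and 0% lower. At an unadjusted p under 0.05, 4 members (Mcee, Shmt2, Acat1 and Bdh2) were higher, where 8.27% of all genes were, and Arg2 was lower, where 12.4% were. Groups did not overlap for 7 higher members (Hibch, Aldh6a1, Acat1, Bdh2, Ass1, Aldh4a1 and Shmt2), where this held for 10.8% of all genes, and for the lower Arg2, where it held for 10.5%. With 21 mo replicate 1 left out, 30 members were called higher, where 10.6% of all genes were, and the median was 1.20. With 21 mo replicate 3 left out, edgeR called no member higher, where 0.00% of all genes were, and the median was 0.31. In that fit 3 members were higher at an unadjusted p under 0.05, a threshold at which the share of all genes was not taken. Limma voom, with its weight on the same 21 mo library as above, called 32 members higher, where 21.2% of all genes were. DESeq2 on all 9 libraries called Arg2 lower, where 4.04% of all genes were, and no member higher, where 1.71% were.

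The third comparison set the O304 group against the 18 mo group, which differ in age, time after surgery and treatment. The members were spread evenly around 0, with 21 fitted above and 19 below and a median of 0.03, compared with 0.00 over all genes. No member or other gene was called by edgeR at an adjusted p under 0.05, so that 0% of all genes were higher and 0% lower. At an unadjusted p under 0.05 no member was higher, where 4.33% of all genes were, and none was lower, where 5.33% were. Groups did not overlap for 5 higher members (Dbt, Hibadh, Aldh6a1, Mut and Bdh2), where this held for 13.2% of all genes, and for 3 lower members (Bckdk, Asl and Prodh), where it held for 13.3%. A p that misses the threshold does not show equal levels, and the standard errors of the members in this comparison reached 1.05.

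**Figure D3:**
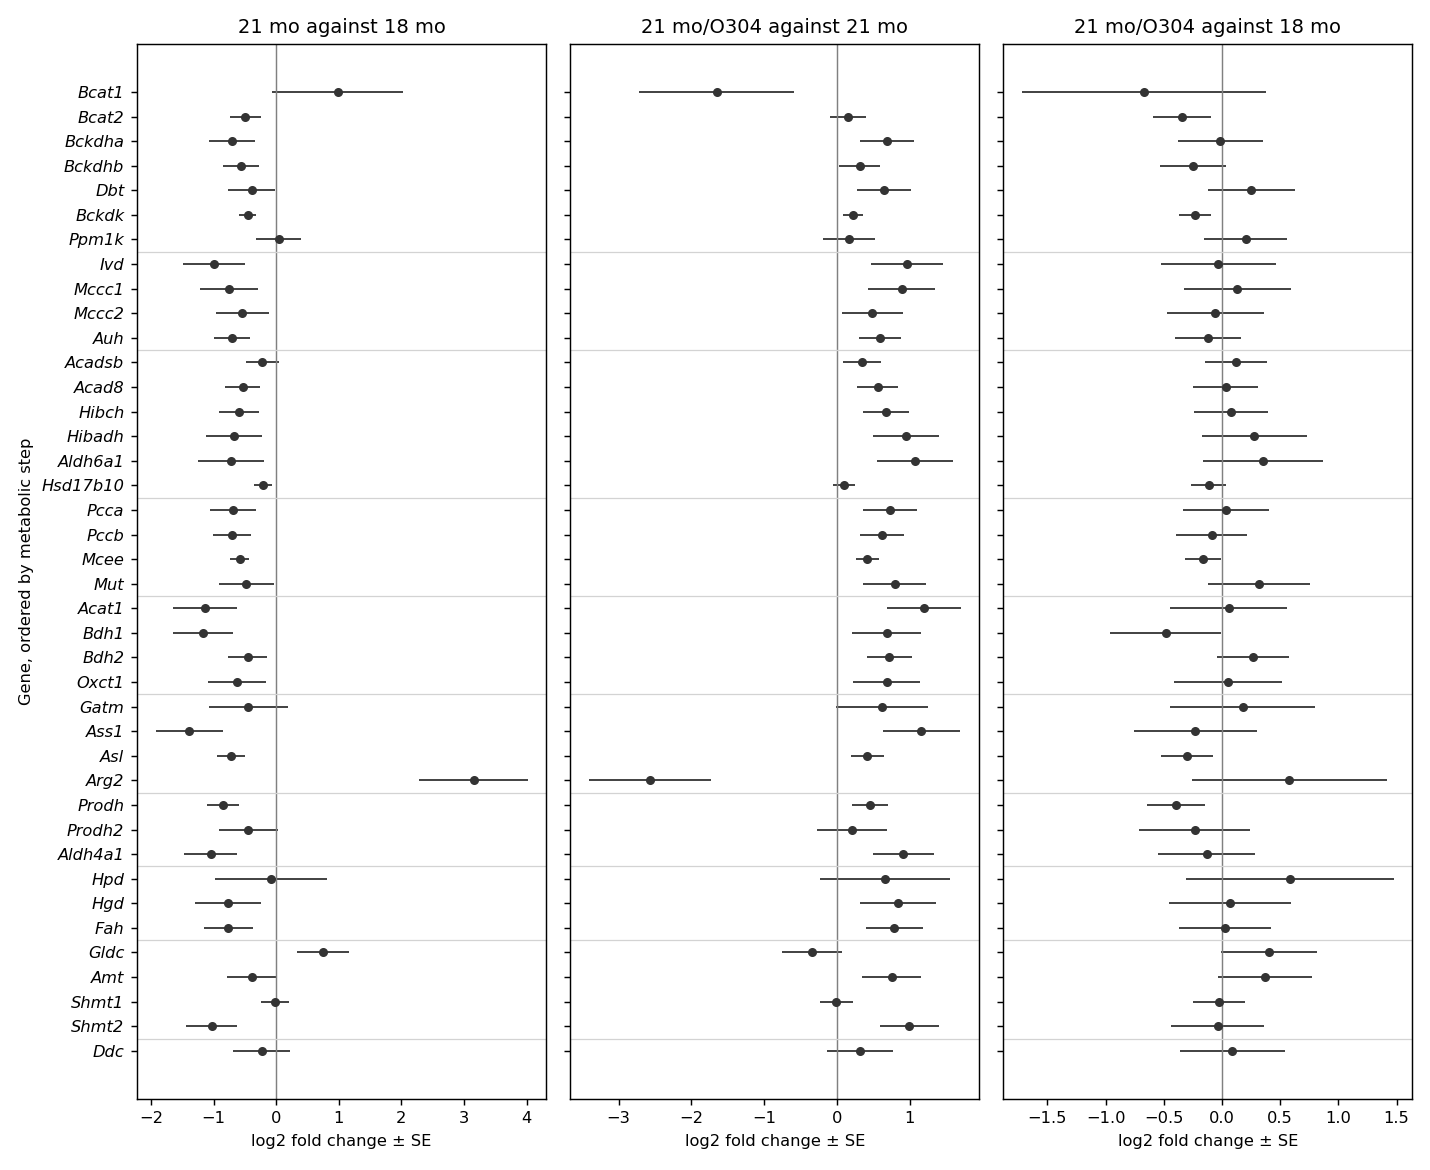
Fitted log2 fold change of each member with its standard error in the 3 comparisons, on x axes of different range. In 21 mo against 18 mo most points lie left of 0, in 21 mo/O304 against 21 mo most lie right of 0, and in 21 mo/O304 against 18 mo they lie on both sides. Arg2 and Bcat1 run opposite to most members in the first 2 panels.

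Among the genes of the shared branched-chain steps, the subunits of the dehydrogenase complex were low in 21 mo replicates 2 and 3. Bckdha, the alpha subunit of the decarboxylase, had 80.6, 97.1 and 85.4 CPM in the 18 mo libraries, 92.4, 42.3 and 26.6 in the 21 mo libraries and 86.2, 88.5 and 85.4 in the O304 libraries. The first 21 mo library lay within the 18 mo range and the others were below all 7 remaining libraries, so the groups overlapped. The log2 fold change was -0.71 ± 0.37 (SE) in 21 mo against 18 mo (edgeR adjusted p = 0.252) and 0.69 ± 0.37 (SE) in O304 against 21 mo (edgeR adjusted p = 0.299). When 21 mo replicate 1 was left out, these values for Bckdha were -1.33 (edgeR adjusted p = 0.005) and 1.32 (edgeR adjusted p = 0.00676), and they were -0.40 and 0.37 without replicate 3 (edgeR adjusted p = 0.416 and 0.547). The beta subunit Bckdhb had log2 fold changes of -0.56 and 0.31, and Dbt, the transacylase core, had -0.39 and 0.64.

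The complex is switched off by the kinase Bckdk and switched on by the phosphatase Ppm1k. Bckdk had 82.9, 89.5 and 83.6 CPM at 18 mo, 72.5, 58.1 and 56.1 in the 21 mo group and 70.8, 65.6 and 81.4 with O304. All saline and all O304 libraries were below all 18 mo libraries, while the saline and O304 libraries overlapped. Bckdk varied little within groups, and its log2 fold change of -0.46 ± 0.13 (SE) in 21 mo against 18 mo had an edgeR adjusted p of 0.092, of 0.0138 without 21 mo replicate 1 and of 0.144 without replicate 3. In O304 against 21 mo it was 0.22 ± 0.13 (SE), with an edgeR adjusted p of 0.347. Ppm1k was fitted at 0.04 in 21 mo against 18 mo and at 0.17 in O304 against 21 mo, and the first of these was -0.46 without 21 mo replicate 1.

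Within the low libraries, the kinase was reduced less than its substrate. The ratio of Bckdk to Bckdha CPM was 1.03, 0.921 and 0.979 in the 18 mo libraries, 0.785, 1.37 and 2.11 in the saline libraries and 0.821, 0.741 and 0.953 in the O304 libraries. The ratio was therefore above all other libraries in 21 mo replicates 2 and 3 and below the 18 mo range in 21 mo replicate 1 and in O304 replicates 1 and 2. This ratio, like the others given between members, was chosen after the values were seen and was not tested.

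The transaminases that start branched-chain catabolism had fitted values of opposite sign in the first 2 comparisons, and the difference between them was not tested. Bcat2, the mitochondrial enzyme, had 107, 71.4 and 76.9 CPM at 18 mo, 71.2, 55.8 and 54.3 in the 21 mo group and 93.0, 53.8 and 54.3 with O304. Every saline library was below all 18 mo libraries, although replicate 1 by a narrow margin. O304 replicates 2 and 3 were as low as saline replicates 2 and 3. Its log2 fold change was -0.49 ± 0.25 (SE) in 21 mo against 18 mo (edgeR adjusted p = 0.239) and 0.15 ± 0.25 (SE) in O304 against 21 mo (edgeR adjusted p = 0.731). Bcat1, the cytosolic enzyme, ranged from 16.8 to 62.6 CPM in the 18 mo group, from 17.5 to 99.1 in the 21 mo group and from 1.46 to 54.7 in the O304 group. Its log2 fold changes of 0.98 and -1.65 had standard errors of 1.05 and 1.07, and the groups overlapped in both comparisons. Bcat2 overlaps a highly counted antisense gene, so part of the reads of Bcat2 may belong to that gene.

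The leucine genes were low in 21 mo replicates 2 and 3. Ivd, isovaleryl-CoA dehydrogenase and the first enzyme of leucine after the shared steps, had 630, 629 and 521 CPM in the 18 mo libraries, 552, 244 and 96.2 in the saline libraries and 643, 521 and 574 in the O304 libraries. Only 21 mo replicates 2 and 3 were far from the others, and groups overlapped in both comparisons. The log2 fold changes of Ivd were -1.0 ± 0.50 (SE) and 0.96 ± 0.50 (SE), with edgeR adjusted p of 0.239 and 0.292, and became -1.79 and 1.76 without 21 mo replicate 1, with edgeR adjusted p of 0.012 and 0.0149. Without 21 mo replicate 3 they were -0.59 and 0.55, with edgeR adjusted p of 0.282 and 0.433. Mccc1 and Mccc2, the subunits of the biotin-dependent carboxylase that follows, had log2 fold changes of -0.76 and -0.54 in 21 mo against 18 mo and of 0.89 and 0.49 in O304 against 21 mo.

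Auh, the hydratase of the next step, had 96.4, 110 and 93.4 CPM at 18 mo, 91.6, 55.4 and 36.0 in the 21 mo group and 93.3, 82.1 and 100 with O304. All saline libraries were below the 18 mo libraries, although replicate 1 by a narrow margin. The fitted log2 change of Auh was -0.71 ± 0.28 (SE) in 21 mo against 18 mo, with an edgeR adjusted p of 0.159, and 0.59 ± 0.28 (SE) in O304 against 21 mo, with an edgeR adjusted p of 0.266. Without 21 mo replicate 1, the 4 leucine genes had an edgeR adjusted p under 0.05 in both comparisons, and without replicate 3 Auh had 0.228 and 0.48.

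In the isoleucine and valine branches, all 6 members were fitted lower in 21 mo against 18 mo, from -0.72 to -0.21, and all 6 higher in O304 against 21 mo, from 0.10 to 1.07. Aldh6a1, methylmalonate semialdehyde dehydrogenase at the end of valine catabolism, had 744, 1024 and 905 CPM in the 18 mo libraries, 1001, 455 and 162 in the saline libraries and 1079, 1094 and 1236 in the O304 libraries. All O304 libraries were above all saline and all 18 mo libraries, while saline replicate 1 lay within the 18 mo range. On the log2 scale, the fold change of Aldh6a1 was -0.72 ± 0.52 (SE) in 21 mo against 18 mo and 1.07 ± 0.52 (SE) in O304 against 21 mo, and neither passed the test (edgeR adjusted p = 0.396 and 0.271). In O304 against 18 mo it was 0.35 ± 0.52 (SE), with an edgeR adjusted p of 0.88. With 21 mo replicate 1 left out, the edgeR adjusted p was 0.027 and 0.0173 in the first 2 comparisons, and with replicate 3 left out it was 0.586 and 0.373.

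Hibch, the hydrolase of the valine branch, had 58.6, 70.7 and 53.6 CPM at 18 mo, 61.0, 39.7 and 20.3 in the 21 mo group and 66.3, 64.2 and 62.4 with O304. The O304 libraries lay close together, within the 18 mo range and above all saline libraries. The log2 fold change of Hibch in O304 against 21 mo was 0.68 ± 0.32 (SE), with an edgeR adjusted p of 0.262, of 0.0221 without 21 mo replicate 1 and of 0.414 without replicate 3. Hibadh, the next dehydrogenase, had log2 fold changes of -0.68 and 0.95, and Acad8, the isobutyryl-CoA dehydrogenase, had -0.53 and 0.56. Acadsb, the corresponding enzyme of isoleucine, had -0.22 and 0.35. Hsd17b10, a dehydrogenase of isoleucine that is also a subunit of mitochondrial ribonuclease P, had the smallest values of the branch, at -0.21 and 0.10.

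The propionyl-CoA steps, which turn the end product of valine and isoleucine into succinyl-CoA, held the member with the smallest p in 21 mo against 18 mo. This was Mcee, methylmalonyl-CoA epimerase, with 59.1, 55.2 and 49.8 CPM in the 18 mo libraries, 43.7, 35.1 and 30.6 in the saline libraries and 53.3, 42.6 and 50.5 in the O304 libraries. All 3 saline libraries were below all 18 mo libraries, and O304 replicate 2 lay among the saline libraries. The log2 fold change of Mcee was -0.58 ± 0.15 (SE), with an edgeR adjusted p of 0.081, in 21 mo against 18 mo and 0.42 ± 0.15 (SE), with an edgeR adjusted p of 0.198, in O304 against 21 mo. When 21 mo replicate 1 was left out, the adjusted p of Mcee in edgeR was 0.0115 and 0.0268, and without replicate 3 it was 0.113 and 0.371.

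Pccb, the beta subunit of propionyl-CoA carboxylase, had 388, 389 and 387 CPM at 18 mo, 360, 218 and 133 in the 21 mo group and 367, 336 and 391 with O304. The 18 mo libraries were nearly equal, all saline libraries were below them, and O304 replicates 1 and 3 were above all saline libraries. On the log2 scale, the fold change of Pccb was -0.71 ± 0.31 (SE), with an edgeR adjusted p of 0.182, and 0.62 ± 0.31 (SE), with an edgeR adjusted p of 0.272. The alpha subunit Pcca had close values of -0.69 and 0.73. The ratio of Pcca to Pccb stayed within 0.425 to 0.486 in 8 libraries and was 0.356 in 21 mo replicate 3. Pcca overlaps Ggact on the other strand, so part of the reads of Pcca may belong to that gene. Mut, the vitamin B12-dependent mutase that ends the route, had log2 fold changes of -0.48 and 0.79, and its 3 O304 libraries, at 324 to 362 CPM, were above the 18 mo libraries, at 267 to 279 CPM.

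The ketone body genes included Acat1, whose log2 fold change was the highest among the members in O304 against 21 mo. Acat1, the mitochondrial thiolase of both isoleucine and ketone body breakdown, had 909, 906 and 763 CPM in the 18 mo libraries, 749, 287 and 135 in the saline libraries and 916, 795 and 971 in the O304 libraries. All saline libraries were below all others, although saline replicate 1 was close to the lowest 18 mo library. The fitted log2 change of Acat1 was -1.14 ± 0.51 (SE) in 21 mo against 18 mo and 1.20 ± 0.51 (SE) in O304 against 21 mo (edgeR adjusted p = 0.194 and 0.233). Without 21 mo replicate 1 it was -2.01 and 2.07, with edgeR adjusted p of 0.00604 and 0.00749, and without replicate 3 it was -0.75 and 0.79, with edgeR adjusted p of 0.24 and 0.348. Oxct1, the transferase that activates acetoacetate for oxidation, had 1403, 1340 and 1242 CPM at 18 mo, 1510, 722 and 335 in the 21 mo group and 1684, 1314 and 1127 with O304. The groups overlapped, since saline replicate 1 was above every 18 mo library, and the log2 fold changes of Oxct1 were -0.63 ± 0.46 (SE) and 0.68 ± 0.46 (SE), with edgeR adjusted p of 0.402 and 0.395. Without 21 mo replicate 1, the edgeR adjusted p of Oxct1 was 0.0263 and 0.0254, and without replicate 3 it was 0.643 and 0.665.

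Of the dehydrogenases of hydroxybutyrate, the mitochondrial Bdh1 was below its 18 mo mean in every later library. Bdh1 had 253, 186 and 165 CPM in the 18 mo libraries, 165, 69.6 and 34.2 in the saline libraries and 178, 118 and 136 in the O304 libraries. Its log2 fold change was -1.17 ± 0.48 (SE) in 21 mo against 18 mo (edgeR adjusted p = 0.168), 0.69 ± 0.48 (SE) in O304 against 21 mo (edgeR adjusted p = 0.408) and -0.48 ± 0.48 (SE) in O304 against 18 mo (edgeR adjusted p = 0.789). Bdh1 was thus fitted lower than 18 mo in both later groups. All saline libraries lay below the 18 mo libraries, but replicate 1 only by a narrow margin. Bdh2, the cytosolic enzyme, had 210, 211 and 231 CPM at 18 mo, 250, 137 and 89.4 in the 21 mo group and 256, 258 and 271 with O304. All O304 libraries of Bdh2 were above all 18 mo and all saline libraries, with log2 fold changes of 0.72 ± 0.31 (SE) against 21 mo (edgeR adjusted p = 0.236) and 0.27 ± 0.31 (SE) against 18 mo (edgeR adjusted p = 0.832). The ratio of Bdh1 to Bdh2 was 0.715 to 1.21 in the 18 mo group and below that in all 6 later libraries, at 0.383 to 0.696.

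**Figure D4:**
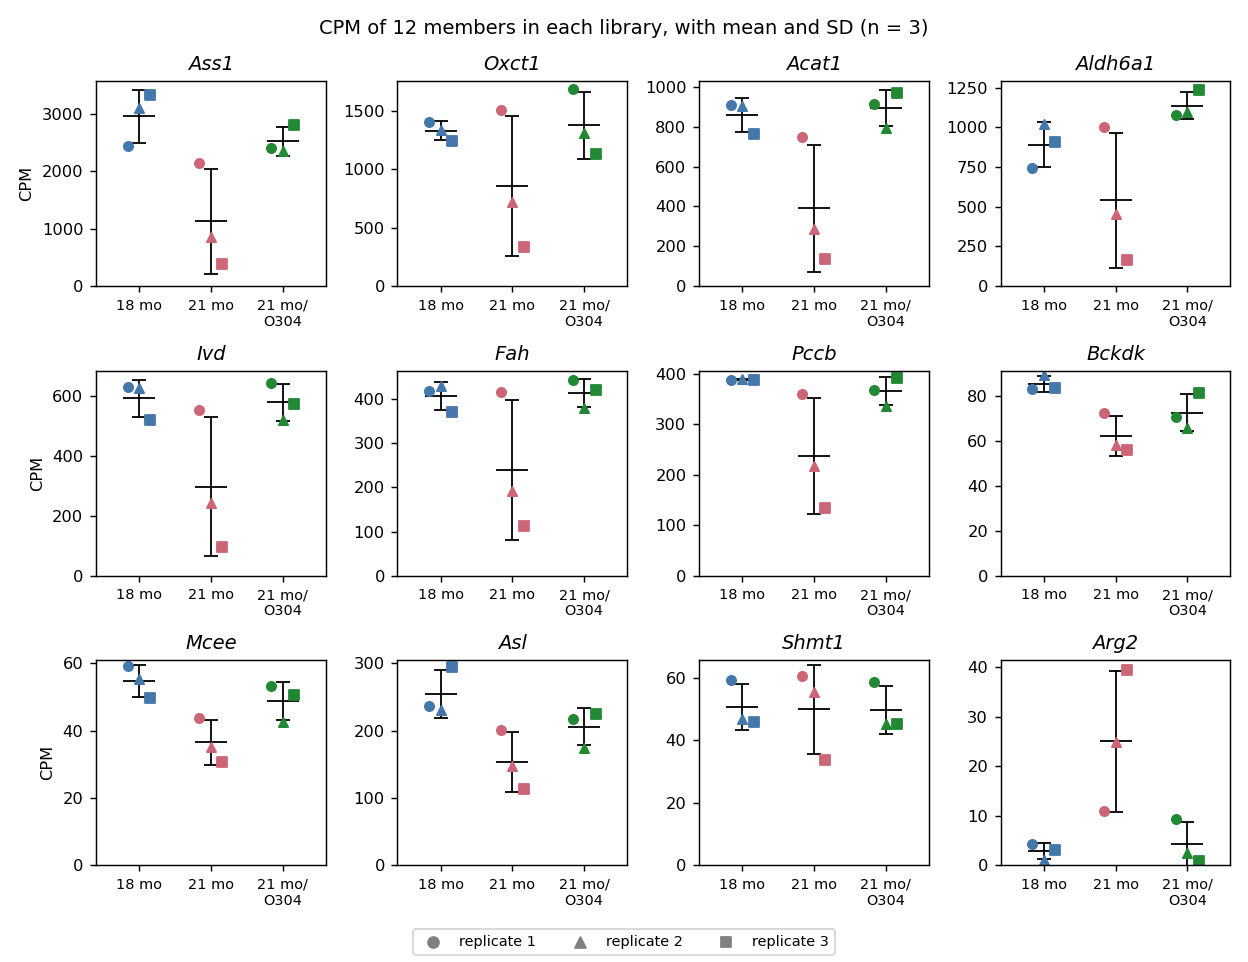
CPM of 12 members in each library, with the group on the x axis and CPM from 0 on the y axis. Symbols mark the replicate number, long bars the mean and short bars the SD of 3 libraries, which for Arg2 with O304 is cut at 0. For Ass1, Acat1 and Ivd the squares and triangles of the 21 mo group lie far below its circle, for Bckdk and Mcee the 3 lie close together, and for Arg2 the order is turned round.

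The arginine genes held both the most abundant member, Ass1, and the member with the largest positive log2 fold change in 21 mo against 18 mo, Arg2. Ass1 (chromosome 2, 31470207 to 31520672) had 2451, 3104 and 3331 CPM in the 18 mo libraries, 2150, 847 and 387 in the saline libraries and 2406, 2355 and 2816 in the O304 libraries. Every saline library was below all 18 mo and all O304 libraries. The log2 fold change of Ass1 was -1.39 ± 0.54 (SE) in 21 mo against 18 mo, the most negative among the members, and 1.16 ± 0.53 (SE) in O304 against 21 mo (edgeR adjusted p = 0.149 and 0.253). Leaving out 21 mo replicate 1 turned these values to -2.25 and 2.02, with edgeR adjusted p of 0.00644 and 0.0106, and leaving out replicate 3 to -1.0 and 0.76, with edgeR adjusted p of 0.158 and 0.376. Ass1 made up 20.9% to 26.7% of the members' summed CPM in the 18 mo group, 17.5%, 14.6% and 12.5% in the saline libraries, and 18.6% to 22.3% in the O304 group.

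Asl, the lyase that follows Ass1, had 237, 230 and 295 CPM at 18 mo, 201, 147 and 113 in the 21 mo group and 217, 174 and 225 with O304. All saline and all O304 libraries were below all 18 mo libraries, and O304 replicate 2 lay among the saline libraries. The fitted log2 change of Asl was -0.72 ± 0.22 (SE) in 21 mo against 18 mo, 0.42 ± 0.22 (SE) in O304 against 21 mo and -0.30 ± 0.22 (SE) in O304 against 18 mo. The edgeR adjusted p of these was 0.0999, 0.301 and 0.706, and that of the first 2 was 0.0123 and 0.0415 without 21 mo replicate 1 and 0.139 and 0.565 without replicate 3. The ratio of Ass1 to Asl was 10.4 to 13.5 in the 18 mo group and 11.1 to 13.5 in the O304 group, but 10.7, 5.76 and 3.43 in the saline libraries. In the low libraries, Ass1 was thus reduced more than its partner.

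Arg2 (chromosome 12, 79130777 to 79156301), the mitochondrial arginase that splits arginine into urea and ornithine, was low in most libraries and high in the saline group. It had 4.34, 1.11 and 3.00 CPM in the 18 mo libraries, 10.9, 24.9 and 39.3 in the saline libraries and 9.36, 2.44 and 0.764 in the O304 libraries. All saline libraries were above all others, although saline replicate 1 and O304 replicate 1 were close. On the log2 scale, the fold change of Arg2 was 3.15 ± 0.87 (SE) in 21 mo against 18 mo, with an edgeR adjusted p of 0.0847, and -2.57 ± 0.84 (SE) in O304 against 21 mo, with an edgeR adjusted p of 0.182. The adjusted p of Arg2 in edgeR was 0.0204 and 0.0366 without 21 mo replicate 1 and 0.124 and 0.322 without replicate 3, and DESeq2 called Arg2 in both comparisons with all libraries. Arg2 overlaps the highly counted Vti1b on the other strand, and the strand setting of the counting was not given in the sources used here, so reads of the pair may be mixed. Gatm, which makes the precursor of creatine from arginine and glycine, had 347 to 593 CPM at 18 mo, 76.0 to 725 in the 21 mo group and 518 to 584 with O304. Its log2 fold changes of -0.45 and 0.62 each had a standard error of 0.63.

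The proline genes were fitted lower in 21 mo against 18 mo. Prodh, proline dehydrogenase, had 291, 341 and 328 CPM in the 18 mo libraries, 254, 132 and 146 in the saline libraries and 276, 207 and 247 in the O304 libraries. All saline and all O304 libraries were below all 18 mo libraries. The log2 fold change of Prodh was -0.85 ± 0.25 (SE), with an edgeR adjusted p of 0.093, in 21 mo against 18 mo and -0.39 ± 0.25 (SE), with an edgeR adjusted p of 0.659, in O304 against 18 mo. It was 0.46 ± 0.25 (SE) in O304 against 21 mo, with an edgeR adjusted p of 0.313, and without 21 mo replicate 1 the edgeR adjusted p was 0.00484 against 18 mo and 0.0156 for O304 against 21 mo, beside 0.145 and 0.56 without replicate 3. Prodh overlaps Dgcr6, so part of its reads may belong to that gene.

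Aldh4a1, which oxidises the product of both proline and hydroxyproline breakdown to glutamate or its hydroxylated form, had 247, 294 and 255 CPM at 18 mo, 218, 118 and 49.6 in the 21 mo group and 232, 237 and 257 with O304. Every saline library was below all others. On the log2 scale, the fold change of Aldh4a1 was -1.05 ± 0.42 (SE) in 21 mo against 18 mo and 0.92 ± 0.42 (SE) in O304 against 21 mo (edgeR adjusted p = 0.16 and 0.253), and the edgeR adjusted p was 0.0108 and 0.0159 without 21 mo replicate 1 and 0.144 and 0.349 without replicate 3. Prodh2, the hydroxyproline dehydrogenase, had log2 fold changes of -0.45 and 0.21, each with a standard error of 0.48. The ratio of Prodh to Aldh4a1 lay between 0.874 and 1.28 in 8 libraries and was 2.94 in 21 mo replicate 3.

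For the tyrosine genes, the groups overlapped in every comparison. Fah, the last enzyme of tyrosine breakdown, had 419, 430 and 371 CPM in the 18 mo libraries, 416, 191 and 112 in the saline libraries and 443, 380 and 422 in the O304 libraries. Saline replicate 1 lay within the 18 mo range and the other saline libraries were low. The log2 fold changes of Fah were -0.76 ± 0.40 (SE) and 0.79 ± 0.40 (SE), with edgeR adjusted p of 0.252 and 0.279, of 0.00681 and 0.00852 without 21 mo replicate 1 and of 0.385 and 0.477 without replicate 3. Hgd, homogentisate dioxygenase, had close values of -0.78 and 0.84. Hpd, which makes homogentisate, overlaps Psmd9 on the other strand, so part of its reads may belong to that gene. Hpd spread most widely, from 5.23 to 94.1 CPM within the 21 mo group. Its log2 fold changes of -0.08 and 0.67 each had a standard error of 0.89, and without 21 mo replicate 1 they were -2.36 and 2.96 (edgeR adjusted p = 0.0092 and 0.00703), whereas without replicate 3 they were 0.36 and 0.21 (edgeR adjusted p = 0.834 and 0.928).

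The glycine and serine genes did not move as a group. Gldc and Amt encode parts of the same glycine cleavage system. Gldc had 35.0, 70.7 and 101 CPM at 18 mo, 131, 72.1 and 143 in the 21 mo group and 72.2, 131 and 70.0 with O304. Its groups overlapped in all comparisons, and the log2 fold changes were 0.74 ± 0.42 (SE), -0.34 ± 0.41 (SE) and 0.41 ± 0.41 (SE), with edgeR adjusted p of 0.282, 0.636 and 0.802. Amt had 63.4, 72.5 and 53.6 CPM in the 18 mo libraries, 84.4, 39.4 and 21.3 in the saline libraries and 89.2, 69.1 and 86.0 in the O304 libraries. The saline libraries lay on both sides of the 18 mo range, and the log2 fold changes of Amt were -0.39 ± 0.41 (SE), 0.75 ± 0.41 (SE) and 0.37 ± 0.40 (SE), with edgeR adjusted p of 0.561, 0.305 and 0.818. With 21 mo replicate 1 left out, Amt had an edgeR adjusted p of 0.0233 in 21 mo against 18 mo and of 0.0115 in O304 against 21 mo, whereas Gldc had 0.318 and 0.726. With replicate 3 left out instead, Amt had 0.944 and 0.539. The ratio of Gldc to Amt was 6.72 in 21 mo replicate 3 and 0.552 to 1.90 in the other 8 libraries.

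Shmt1 and Shmt2 encode the cytosolic and the mitochondrial serine hydroxymethyltransferase, which interconvert serine and glycine. Shmt1 overlaps Smcr8 on the other strand, so part of the reads of Shmt1 may belong to that gene. Shmt2 had 215, 293 and 233 CPM at 18 mo, 209, 98.9 and 54.1 in the 21 mo group and 231, 227 and 263 with O304. All saline libraries were below all others. The fitted log2 change of Shmt2 was -1.04 ± 0.41 (SE) in 21 mo against 18 mo and 1.00 ± 0.41 (SE) in O304 against 21 mo (edgeR adjusted p = 0.153 and 0.219), with edgeR adjusted p of 0.00604 and 0.00825 without 21 mo replicate 1 and of 0.196 and 0.349 without replicate 3. Shmt1 had 45.9 to 59.1 CPM in the 18 mo libraries, 33.8 to 60.5 in the saline libraries and 45.1 to 58.6 in the O304 libraries, with log2 fold changes of -0.02 ± 0.22 (SE) and -0.01 ± 0.22 (SE), and the first of these turned to 0.01 with upper-quartile normalization. The ratio of Shmt1 to Shmt2 was 0.160 to 0.276 at 18 mo, 0.290, 0.559 and 0.625 with saline and 0.171 to 0.253 in the O304 group.

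Ddc, the decarboxylase that makes dopamine in the proximal tubule, had 91.7, 112 and 83.7 CPM at 18 mo, 156, 51.0 and 37.9 in the 21 mo group and 112, 83.7 and 109 with O304. Saline replicate 1 was the highest and the other saline libraries were the lowest of all 9. The log2 fold changes of Ddc were -0.24 ± 0.45 (SE) and 0.32 ± 0.45 (SE), with edgeR adjusted p of 0.766 and 0.684. Without 21 mo replicate 1 they were -1.09 and 1.19, with edgeR adjusted p of 0.0092 and 0.00948, and without replicate 3 they were 0.09 and -0.01, with edgeR adjusted p of 0.913 and 0.991.

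Other genes of the same pathways, 91 in a list written by amino acid, were set beside the members. Of these, 80 passed the filter on low counts. In 21 mo against 18 mo 63 were fitted lower, where 47.3% of all genes were, and 17 higher, and their median was -0.54 on the log2 scale. At an unadjusted p under 0.05, 20 were lower, where 12.0% of all genes were, and 8 were higher, where 14.0% were. None had an edgeR adjusted p under 0.05, where 0.0189% of all genes were called higher and 0% lower. In O304 against 21 mo, 62 were fitted higher, where 48.2% of all genes were, and 18 lower, with a median of 0.59. At an unadjusted p under 0.05 14 were higher, where 8.27% of all genes were, and 6 were lower, where 12.4% were. In O304 against 18 mo the median was 0.03. At that threshold 1 gene was higher, where 4.33% of all genes were, and 1 was lower, where 5.33% were. The arginine, ornithine and proline list was the only 1 of the 7 lists with more of its tested genes higher than lower in 21 mo against 18 mo, at 4 of 6.

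Among these other genes, those with the smallest p in 21 mo against 18 mo were Asns, Maoa, Ftcd and Ethe1. Asns, which makes asparagine, and Maoa, which oxidises monoamines, had log2 fold changes of 1.69 ± 0.36 (SE) and 1.23 ± 0.32 (SE), with edgeR adjusted p of 0.0631 and 0.0803. Ftcd, of histidine breakdown, and Ethe1, of sulfide oxidation, had -1.54 ± 0.42 (SE) and -0.85 ± 0.24 (SE), with edgeR adjusted p of 0.0844 and 0.0849. In O304 against 21 mo they were Mmaa, Odc1, Phgdh and Maoa, all with an edgeR adjusted p of 0.175. Mmaa, which serves the cofactor of the mutase Mut, had a log2 fold change of 0.63 ± 0.16 (SE), and Odc1, the ornithine decarboxylase of polyamine synthesis, had 1.65 ± 0.42 (SE). Phgdh, the first enzyme of serine synthesis, had -1.77 ± 0.47 (SE), and Maoa had -1.18 ± 0.32 (SE).

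In O304 against 18 mo, Hdc, the histidine decarboxylase, had a log2 fold change of -0.98 ± 0.29 (SE), with an edgeR adjusted p of 0.357. Hoga1, of hydroxyproline breakdown, had -0.70 ± 0.34 (SE), with an edgeR adjusted p of 0.544. Asns had 0.72 ± 0.36 (SE), with an edgeR adjusted p of 0.557. All 3 O304 libraries of Hdc, the highest at 3.31 CPM, were below all 18 mo libraries, which ranged from 3.73 to 7.37 CPM.

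The tissue label was checked against marker genes, and the markers of the cells that carry most of these enzymes moved in the same libraries as the members. The 12 shared proximal tubule markers summed to 13540 to 17297 CPM at 18 mo, to 14951, 7546 and 2481 with saline and to 14494 to 15989 with O304, and none was at 0 in any library. In 21 mo against 18 mo, 11 of the 12 were fitted lower, and in O304 against 21 mo 12 of the 12 were fitted higher. The 8 markers of the straight segment summed to 24219 to 31887 CPM at 18 mo, to 25179, 5415 and 791 with saline and to 30438 to 35076 with O304, and none was at 0. The median log2 ratio of the members to their 18 mo level was 0.10, -0.84 and -1.56 in the 21 mo replicates, beside 0.16, -0.76 and -2.68 for the shared proximal tubule markers. The medians were close in replicate 2, and in replicate 3 that of the members was nearer to 0.

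Markers of injured tubules, macrophages and fibroblasts were highest in the same libraries. In 21 mo replicate 1, 6 of the 9 injury markers and all 7 macrophage markers were also above all 18 mo libraries. In that library 31.1% of all genes tested lay above. The 9 tubule injury markers summed to 836 to 957 CPM at 18 mo, to 1473, 12592 and 15218 with saline and to 846 to 1236 with O304. The 7 macrophage markers summed to 683 to 938, to 1457, 2048 and 4164, and to 1088 to 1330 CPM in the same order, and the 7 fibroblast markers to 183 to 283, to 141, 582 and 1389, and to 117 to 266 CPM. No gene of these 3 lists was at 0. Of the 6 adipocyte markers, Lep and Ucp1 did not pass the filter on low counts, and Adipoq, Plin1 and Cidec were high with O304. Up to 4 of the 6 were at 0 in a library, and most of their summed CPM was Fabp4, which endothelial cells and macrophages also express, at 46.0 to 89.7 CPM at 18 mo, 30.1 to 128 in the 21 mo group and 101 to 147 with O304. Adipoq, which encodes adiponectin, was at 0, 0 and 1.41 CPM in the 18 mo libraries, at 0.0669, 0 and 0.504 in the saline libraries and at 21.6, 1.97 and 15.1 in the O304 libraries. Plin1, of the lipid droplet coat, had at most 1.02 CPM in the 18 mo and saline libraries and 12.6, 1.13 and 5.35 CPM with O304, and Cidec had at most 1.64 and then 20.5, 2.21 and 13.2 CPM. All O304 libraries of these 3 genes were thus above all others, O304 replicate 2 by the smallest margin. Of all genes, 10.8% were higher without overlap against 21 mo and 13.2% against 18 mo. Each had an unadjusted p under 0.05 against both other groups, and an edgeR adjusted p of 0.175 against 21 mo and of 0.337 to 0.361 against 18 mo.

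The median log2 fold changes of the remaining lists in 21 mo against 18 mo were 0.21 for thick ascending limb, -0.62 for distal convoluted and connecting tubule, -0.68 for collecting duct, 0.62 for podocyte, -0.29 for endothelium, 0.73 for T cell, 0.74 for B and plasma cell and 2.14 for neutrophil markers. In O304 against 21 mo they were in the same order -0.98, 1.13, 0.19, -0.33, 0.52, 0.14, 0.71 and -1.26, and in O304 against 18 mo -0.57, 0.59, -0.37, 0.38, 0.29, 0.75, 1.17 and 0.81. Of the 4 markers of the distal convoluted and connecting tubule, 3 (Slc12a3, Calb1 and Trpm6) were higher at an unadjusted p under 0.05 in O304 against 21 mo. Their edgeR adjusted p was 0.175 to 0.182, and 8.27% of all genes were higher at that unadjusted threshold. Of the 4 thick ascending limb markers, Cldn16 was lower at that threshold, where 12.4% of all genes were, with an edgeR adjusted p of 0.175. In the 21 mo replicates, neutrophil markers summed to 62.3, 18.8 and 53.2 CPM and T cell markers to 26.3, 10.3 and 14.1 CPM. Within that group, both lists were thus highest in replicate 1. The part of these cell markers in the members' values was not tested.

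**Figure D5:**
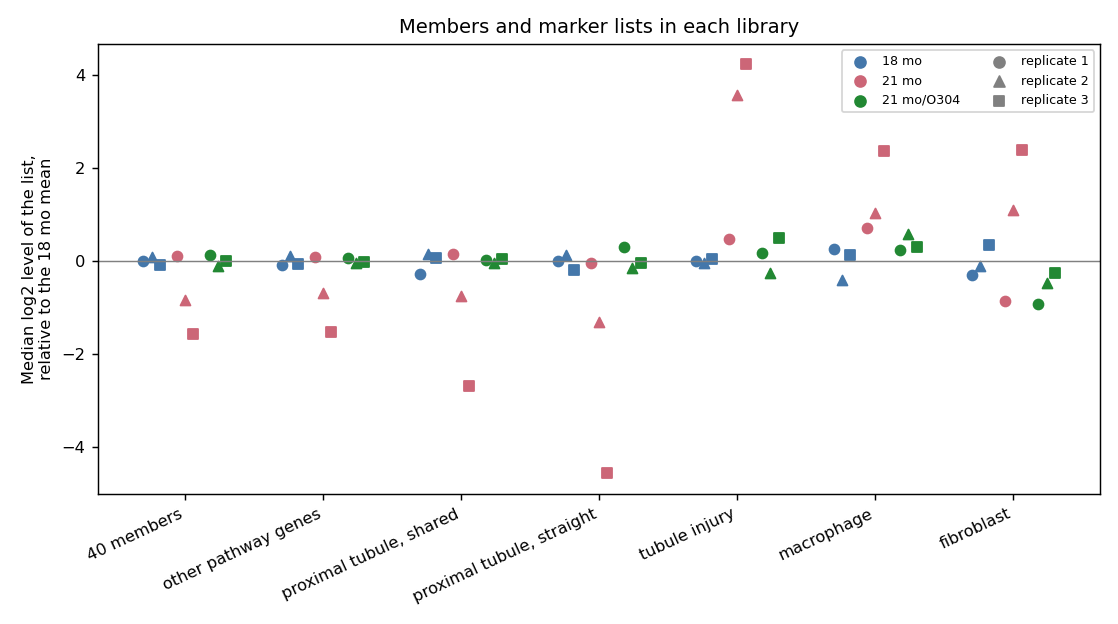
Median log2 level of the 40 members, of the other pathway genes and of 5 marker lists in each library, relative to the 18 mo mean. Colours mark the group and symbols the replicate. In 21 mo replicates 2 and 3 the members, the other pathway genes and both proximal tubule lists lie below 0, while the tubule injury, macrophage and fibroblast lists lie above 0.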

How the data were processed

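Kidney RNA of 9 libraries, 3 in each group, was sequenced by the authors. They aligned filtered paired-end reads with HISAT2 2.0.5 and counted them with featureCounts 1.5.0-p3, and the counts per gene were deposited as whole reads, not normalized. FPKM, also deposited, were computed by the authors from counts and gene lengths. Their library sizes, recovered from the FPKM, were 0.955 to 1.24 times the count totals. The submitters' processing notes name GRCm38 and mm10, and coordinates are those of the table. Strand setting and treatment of multi-mapping reads are not given in the sources used here, and 24 of the 40 members overlap another annotated gene. The authors' own fold changes, p-values and group means (DESeq2 1.20.0) were not used. Matched by symbol, 40 of 40 members overlapped their RefSeq gene.

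Genes were filtered with filterByExpr (minimum count 10, minimum total 15), scaled by TMM and tested with the edgeR 4.0.16 quasi-likelihood test in R 4.3.3. Means of 3 groups were fitted to 9 libraries with 6 residual degrees of freedom, two-sided, with Benjamini-Hochberg adjustment over all 15902 genes. An exact permutation test of 3 against 3 libraries cannot give a p under 0.1 and is therefore not printed. CPM are TMM-normalized. A fitted log2 change with a p of 0.05 or above is given as a value and is not taken to show a difference. Alternatives were DESeq2 1.42.0, limma 3.58.1 voom with quality weights, other normalizations and filters, fewer libraries and a replicate block. DESeq2 on the 6 libraries compared, and counts of members by unadjusted p and by fitted direction, were added after the data were seen. The tests were tried on simulated counts. Members, lists and comparisons were chosen with earlier results of these data known. CPM in every library is given for the 8 members with the smallest p in each comparison and the member with the highest FPKM of each metabolic step. Other members are given by log2 fold change or range, and Bcat1, Gatm, Hpd, Mut and Shmt1 were given ranges after their values were seen. Of the other pathway genes, the 4 with the smallest p in each comparison are named. A result that needs 1 withheld item is not reported here. No promoter or protein sequence was used here.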

Additional observations from a re-analysis of the deposited data

How the results depend on the processing

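The 21 mo libraries differ widely, and voom put almost all of that group's weight on replicate 2. In 21 mo against 18 mo, edgeR called 3 genes and 0 members. DESeq2 on all libraries called 2058 genes and 6 members, DESeq2 on the 6 libraries compared 1036 and 1, limma voom with quality weights 8409 and 37, every gene with at least 1 count 576 and 1, an unadjusted p under 0.05 4147 and 11, and edgeR on only the 6 libraries 0 genes. Leaving out a library gave 0 to 4186 genes and 0 to 33 members, the highest without 21 mo replicate 1. Members lower at an unadjusted p under 0.05 numbered 10, with 35 by voom, 4 on the 6 libraries and 4 to 33 leaving out a library, and members higher numbered 1, with 2 by voom and 1 to 2. In O304 against 21 mo, edgeR called 0 genes and 0 members, beside 931 and 1 (DESeq2), 474 and 1 (DESeq2 on 6 libraries), 6528 and 34 (voom), 3289 and 5 (unadjusted p), 17 genes (every gene with at least 1 count), and 0 to 3808 genes and 0 to 31 members leaving out a library. Members higher at an unadjusted p under 0.05 numbered 4, with 10 by DESeq2, 33 by voom, 13 without a filter, 1 on the 6 libraries and 0 to 34 leaving out a library, and members lower numbered 1, with 2 by voom and 0 to 2. In O304 against 18 mo, edgeR called 0 genes, beside 125 (DESeq2), 793 with 1 member, Mut (DESeq2 on 6 libraries), 415 (voom), 22 (only the 6 libraries), 1536 (unadjusted p) and 0 to 12 leaving out a library, with 0 members in each of the last. Members higher and lower at an unadjusted p under 0.05 numbered 0 and 0 there, beside 7 and 3 (DESeq2 on 6 libraries), 1 and 3 (voom), 6 and 4 (only the 6 libraries), and 0 and 0 to 2 leaving out a library. The medians of the members were -0.57, 0.63 and 0.03, with -1.12 to -0.30, 0.31 to 1.20 and -0.02 to 0.07 leaving out a library. Members fitted lower and higher numbered 32 to 37 and 3 to 8, 3 to 7 and 33 to 37, and 16 to 23 and 17 to 24. The sources do not say what a shared replicate number stands for, and deviations of same-numbered libraries correlated at -0.13 to 0.17, over 0.1 in 5 of 9 pairs. With the replicate block, 0 genes were called in the first comparison. At an unadjusted p under 0.05, 16 members were lower there, 15 were higher and 2 lower in the second, and 1 was lower in the third. The shares of all genes at an unadjusted p were not taken under the alternative settings. The members' counts at that threshold under those settings therefore cannot be set against a background. Single genes turned in direction as follows. In 21 mo against 18 mo, Ppm1k was -0.030 with voom and -0.055 with the replicate block, and ranged from -0.46 to 0.33 leaving out a library. Shmt1 was 0.18 with voom, 0.011 with the upper quartile, 0.0011 without a filter and 0.0028 on only the 6 libraries, and ranged from -0.17 to 0.18. Gatm ranged from -1.53 to 0.016, Hpd from -2.36 to 0.42 and Ddc from -1.09 to 0.092, each lowest without 21 mo replicate 1. In O304 against 21 mo, Gldc was 0.28 with voom and Shmt1 0.017 with the replicate block. Leaving out a library, Shmt1 ranged from -0.21 to 0.15, Bcat2 from -0.18 to 0.28, Ppm1k from -0.13 to 0.67, Prodh2 from -0.22 to 0.78 and Ddc from -0.015 to 1.19. The causes were not tested.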
